A study of Mus musculus with 8 samples.

Results

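The mitochondrial ribosomal protein genes were taken as all genes on the arrays whose symbol begins with Mrpl or Mrps followed by a digit, the naming used for proteins first assigned to the large (Mrpl) or the small (Mrps) subunit of the mitochondrial ribosome. Of 20887 genes with a matched probe, 78 met this definition, 49 named for the large subunit and 29 for the small subunit. The RefSeq gene table also lists 6 pseudogenes with such symbols, which were not counted as genes here, and a probe may also bind transcripts of near-identical processed copies. The definition used symbols alone and no measured value.

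The samples are dendritic cells raised in culture from bone marrow derived monocytes of female C57BL/6 mice, in 2 groups of 4. The LPS group had GM-CSF (10 ng/ml) plus IL-4 in the medium, was given lipopolysaccharide (LPS, a cell wall component of Gram-negative bacteria) at 50 ng/ml overnight, and is labelled day 7. The immature group had GM-CSF (10 ng/ml) plus IL-4, no LPS, and is labelled day 6. Both groups therefore share the 2 cytokines, strain and sex, no untreated day 7 sample was analysed here, and the effects of LPS and of the additional night in culture cannot be told apart. The labels do not say whether the 4 replicates of a group are separate mice or separate cultures, so p-values measure only the spread between these samples.

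The mitochondrial ribosome translates the few messenger RNAs that are transcribed from mitochondrial DNA, which in mammals all encode membrane subunits of the oxidative phosphorylation complexes. Its RNAs are made inside the organelle, whereas all of its proteins are encoded in the nucleus, made in the cytosol and imported, so that assembly draws on both genomes. Some of its proteins have counterparts in bacterial ribosomes and others are found only in mitochondria. In mouse dendritic cells grown from bone marrow, activation through Toll-like receptors is known for a shift from oxidative phosphorylation towards glycolysis.

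Levels are given as log2 signal relative to the 75th percentile of the array, and changes as LPS minus immature on that scale, with the standard error after ± and p-values of limma's moderated test adjusted over all tested genes. The 75th percentile lay at 392 to 421 signal units on the LPS arrays and at 450 to 491 on the immature arrays, and 47.5 to 51.3% of spots per array were well above background. Immature replicate 3 stood apart from its group. Spread between arrays was the median absolute deviation of log2 differences, over tested genes with a mean level above the 75th percentile. It was 0.254 to 0.387 between replicate 3 and the other immature arrays, against 0.0941 to 0.210 for the other pairs of replicates. Counts for the whole set and for each subunit are therefore also given without immature replicate 3. Of the marker lists, 8 of the 9 dendritic cell genes were well above background on all 8 arrays, and Cd209a on 0 of 4 LPS arrays and 4 of 4 immature arrays. Their summed linear levels were 962 to 1084 times the percentile in LPS samples and 847 to 911 in immature samples, with 4 genes called higher and 4 lower, Cd209a among the 4 lower. The 10 neutrophil and precursor genes measured were all lower after LPS (sums of 248 to 455 in LPS samples and 745 to 890 in immature samples), as were all 7 genes of dividing cells (17.2 to 37.1 in LPS samples and 75.3 to 137 in immature samples). The lowest immature sum of the dividing cell genes, 75.3, was that of replicate 3. Macrophage gene sums were 101 to 129 in LPS samples and 106 to 135 in immature samples, with 1 of 6 genes called higher and 3 lower. Of the 4 T cell genes, Cd3e and Cd4 were well above background on all 8 arrays, Cd3g on 0 LPS arrays and 1 immature array, and Cd8a on none, with sums of 3.92 to 4.42 in LPS samples and 3.46 to 4.05 in immature samples. Among B cell genes, Ms4a1 was well above background on 2 LPS and 4 immature arrays, Cd79a on 0 LPS arrays and 1 immature array, and Pax5 on none. The part of these cells in the results below was not tested, and in such bulk RNA fewer cells of a type and less RNA per cell cannot be told apart. All LPS arrays lay in 1 row of the slide and all immature arrays in the other, so the row and the treatment cannot be told apart.

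Of the 78 genes, 77 were tested, all with a probe well above background on all 8 arrays (48 for the large and 29 for the small subunit). The remaining gene, Mrpl21, was represented by 1 probe that was well above background on 0 of 8 arrays, so no change is given for it. After LPS, 15 of 77 genes (19.5%) were called higher and 22 (28.6%) lower at an adjusted p of 0.05, and 40 were not called. Over all 12706 tested genes 56.1% were called, 31.4% higher and 24.7% lower. The LPS arrays lay entirely above the immature arrays for 15 of the 77 genes, against 30.1% of all genes, and entirely below them for 15, against 22.3% of all genes. Changes were small: the median was -0.12 (quartiles -0.30 and 0.12, range -0.84 to 1.21), and 63 of 77 stayed within 0.5 in either direction, as did 7533 of the 12706 genes. A called change of at least 2-fold was seen for 1 of the 77, Mrpl13, whereas 17.9% of all tested genes had one.

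The number of genes called in each direction depended on how the arrays were scaled. The median of all tested genes was 0.06 after scaling to the 75th percentile, -0.12 after scaling to the array median and -0.15 with no scaling. With the array median, 8 of the 77 genes were called higher and 35 lower, beside 20.6% and 32.8% of all genes. With no scaling, 7 were called higher and 36 lower, beside 19.1% and 35% of all genes. The median of the set minus that of all genes was -0.178; these scalings take 1 constant off each array, so that difference is the same in all 3 by construction.

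**Figure D1:**
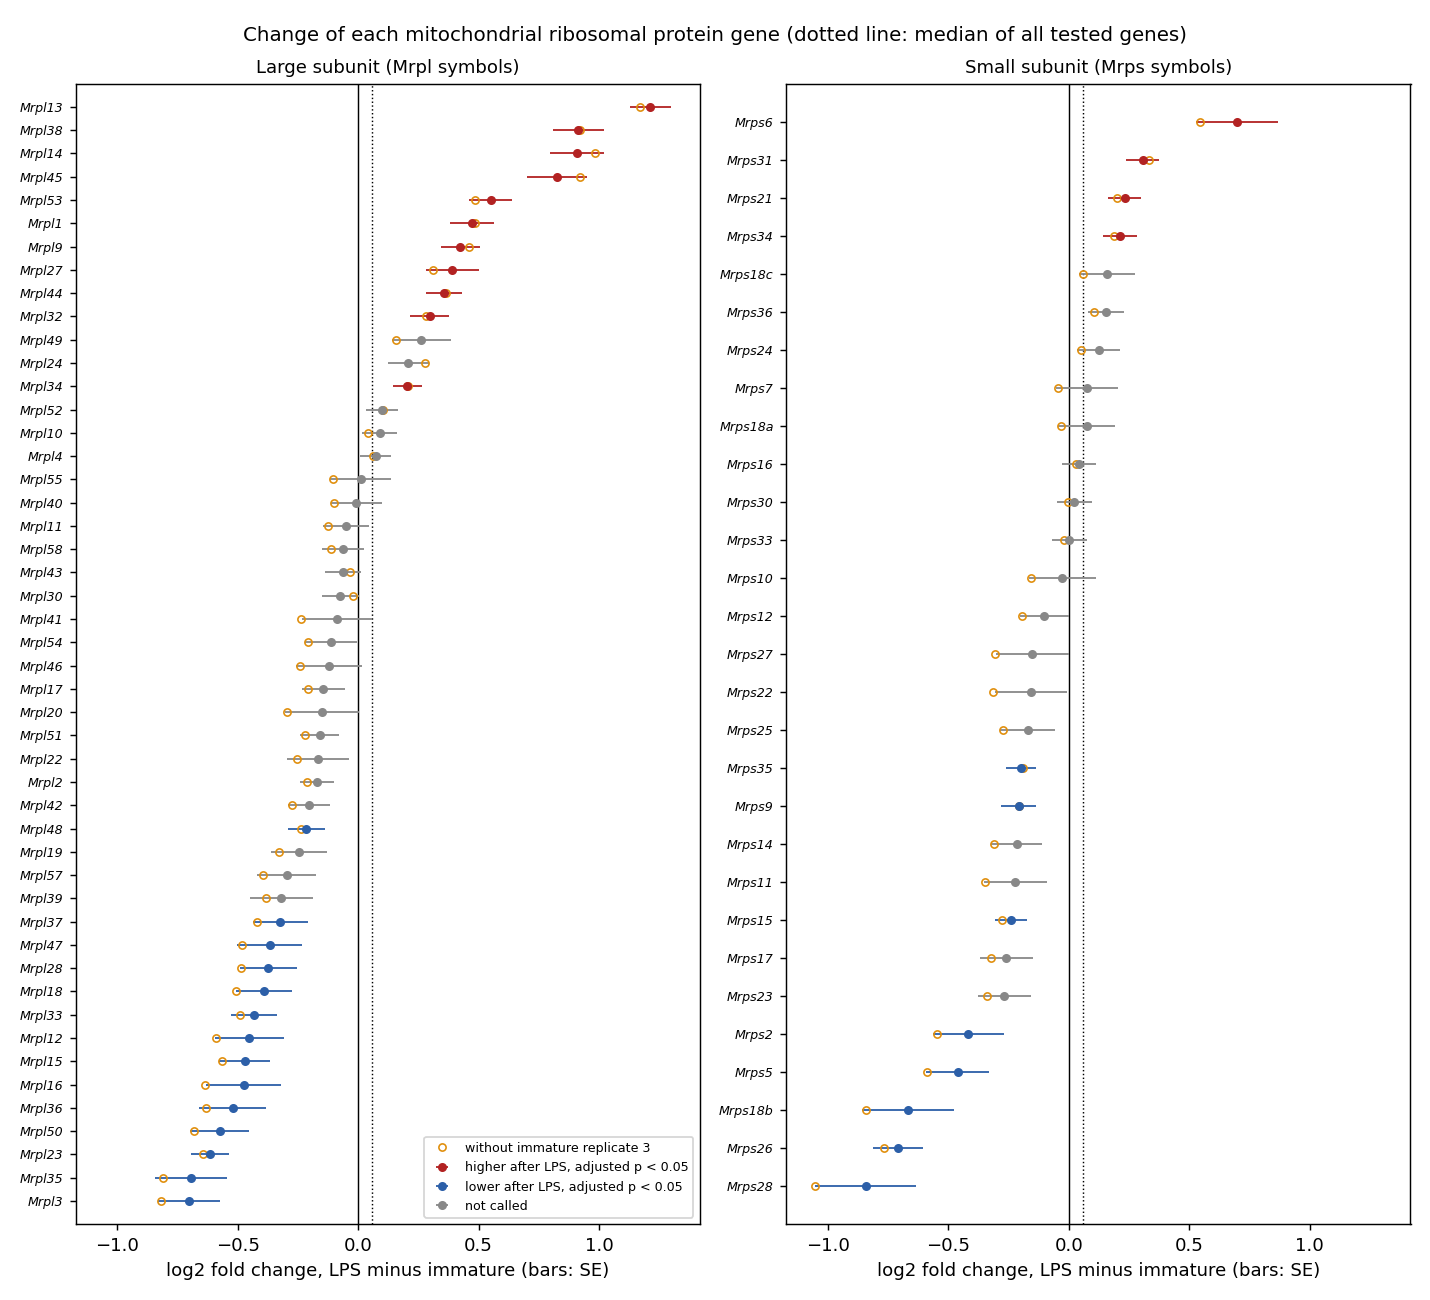
Change of each of the 77 tested genes (x axis: log2 fold change, LPS minus immature, with bars for the standard error), with large subunit genes in the left panel and small subunit genes in the right panel, ordered by change. Filled points are coloured by call (red higher, blue lower, grey not called), open circles give the change without immature replicate 3, and the dotted line is the median of all tested genes, 0.06. Above 0.5 lie 5 large subunit genes and 1 small subunit gene, Mrps6, most genes of both panels lie within 0.5 of 0, and most open circles lie to the left of their filled points.

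Both subunits held genes called in each direction. For the large subunit, 11 of 48 genes were called higher, 14 lower and 23 not called, with a median change of -0.12. For the small subunit, 4 of 29 were called higher, 8 lower and 17 not called, with a median of -0.15. The medians differed by 0.04, large minus small. The median standard error of a single gene was 0.11 in either subunit, which is not the error of that difference. Array by array, the median level of large subunit genes (each gene set against its mean over the 8 arrays) minus that of small subunit genes ran from 0.00015 to 0.05 on the LPS arrays and from -0.02 to 0.05 on the immature arrays. These values overlap between the groups, and no test was made of the difference between subunits, because genes are not replicates.

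Symbols and structure do not match for 3 of the small subunit names. The products of Mrps18a and Mrps30 are found in the large subunit of the mammalian mitochondrial ribosome, and the product of Mrps36 is known as a component of the 2-oxoglutarate dehydrogenase complex. With the first 2 counted in the large subunit and Mrps36 left out, 11 of 50 large subunit genes were called higher and 14 lower (median -0.10), and 4 of 26 small subunit genes were called higher and 8 lower (median -0.16). Grouped by ancestry in the current ribosomal nomenclature, 9 of the 44 genes classed as bacterial homologues were called higher and 16 lower (median -0.16). Of the 32 genes classed as mitochondria-specific, 6 were called higher and 6 lower (median -0.10). As shares these are 20.5% higher and 36.4% lower for the first class, and 18.8% each way for the second. Over all tested genes they were 31.4% and 24.7%. The classes follow the naming, and the second includes Mrps18a and Mrps18b, which are related to a bacterial protein. Immature replicate 3 was the lowest immature array for 37 of the 44 bacterial homologues and 24 of the 32 mitochondria-specific genes. Counts without that array are not given for this split, so it is not read as a difference between the classes.

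Promoter sequence was examined because members of a complex that move in opposite directions can be set beside the motifs they carry. The RefSeq promoter table (GRCm38.p6, 250 bases before to 50 after the start of each gene) held 69 of the 78 genes. Motifs for 3 factors known to act at promoters of nuclear genes for mitochondrial proteins were searched on both strands: GCGC, any base, T and GCGC in a row for NRF1, CCGGAAG for ETS factors such as GABPA, and AAGATGGC for YY1. The ETS letters end in the AAG with which the YY1 letters begin, so a single run can hold both. The NRF1 letters were present for 13 of 69 genes (18.8%), a gene being counted if any of its listed promoters held them. They were present for 5.19% of all 27025 genes with a listed promoter and for 10.8% of the 10189 tested ones. The ETS letters were present in 26 (37.7%, against 9.93% of all and 19.5% of tested) and the YY1 letters in 12 (17.4%, against 3.19% and 5.24%), and 43 of the 69 carried at least 1 of the 3. The following 150 bases before the start are shown 5′ to 3′ on the gene's strand, with the matched letters in capitals: Mrpl45, Mrpl9 and Mrpl44, called higher, and Mrpl12, called lower, for the NRF1 letters; Mrpl3, called lower, for the ETS letters; and Mrps11, not called, for the YY1 letters.
Mrpl45: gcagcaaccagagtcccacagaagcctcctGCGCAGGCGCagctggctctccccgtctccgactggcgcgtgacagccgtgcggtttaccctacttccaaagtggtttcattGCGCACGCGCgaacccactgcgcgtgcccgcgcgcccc
Mrpl9: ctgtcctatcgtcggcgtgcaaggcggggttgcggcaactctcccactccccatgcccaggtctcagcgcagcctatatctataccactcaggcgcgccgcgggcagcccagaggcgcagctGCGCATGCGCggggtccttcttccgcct
Mrpl44: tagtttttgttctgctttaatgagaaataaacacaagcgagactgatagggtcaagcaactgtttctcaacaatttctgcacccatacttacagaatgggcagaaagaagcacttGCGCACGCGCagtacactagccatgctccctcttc
Mrpl12: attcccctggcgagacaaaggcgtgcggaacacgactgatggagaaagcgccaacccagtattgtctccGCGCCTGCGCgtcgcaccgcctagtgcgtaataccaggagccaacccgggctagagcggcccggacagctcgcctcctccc
Mrpl3: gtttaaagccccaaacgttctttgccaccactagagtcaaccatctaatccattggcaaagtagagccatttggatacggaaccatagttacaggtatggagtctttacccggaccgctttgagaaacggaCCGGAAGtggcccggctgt
Mrps11: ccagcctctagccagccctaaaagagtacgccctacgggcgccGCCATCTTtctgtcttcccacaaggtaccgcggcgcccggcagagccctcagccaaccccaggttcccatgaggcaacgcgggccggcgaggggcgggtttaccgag
Their positions in GRCm38.p6 are chr11:97315566-97315715 (plus strand) for Mrpl45, chr3:94443186-94443335 (plus strand) for Mrpl9, chr1:79775868-79776017 (plus strand) for Mrpl44, chr11:120484487-120484636 (plus strand) for Mrpl12, chr9:105053118-105053267 (plus strand) for Mrpl3 and chr7:78782981-78783130 (plus strand) for Mrps11. The first matched base of each lies 120 and 38 (Mrpl45), 28 (Mrpl9), 35 (Mrpl44), 81 (Mrpl12), 19 (Mrpl3) and 107 (Mrps11) bases before the start. Of the 13 genes with the NRF1 letters, 6 were called higher, 3 lower and 4 not called, with a median change of -0.07. Of the 55 tested genes whose window lacked those letters, 6 were called higher and 16 lower, with a median of -0.15. The 25 tested genes with the ETS letters split into 4 higher, 6 lower and 15 not called, and the 12 with the YY1 letters into 1, 3 and 8. Each motif was thus carried by genes called in both directions. Over all tested genes 31.4% were called higher and 24.7% lower. Calls among all tested genes that carry the letters are not given. With so few genes, the splits are not read as a result about any motif. A match is a run of letters and not evidence that a factor is bound.

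The 4 largest increases of the large subunit were in Mrpl13, Mrpl38, Mrpl14 and Mrpl45. Mrpl13 encodes the counterpart of a bacterial protein that joins the large subunit early in assembly. Mrpl13 had levels of 5.22, 5.14, 5.05 and 4.95 in the LPS samples and 3.84, 3.97, 3.75 and 3.94 in the immature samples. LPS arrays were all the higher ones, and at 2.32-fold (1.21 ± 0.09, adjusted p = 1.5e-05) this was the largest change of the set. Mrpl38 encodes a mitochondria-specific protein of the central protuberance, the crest of the large subunit. Levels of Mrpl38 were 1.16, 1.22, 1.11 and 1.45 in LPS replicates 1 to 4 and 0.12, 0.41, 0.34 and 0.41 in immature replicates 1 to 4. The 2 groups stood apart, with LPS above, a difference of 0.92 ± 0.11, adjusted p = 1.7e-04.

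Mrpl14 encodes a protein of the face that meets the small subunit, and is the docking site of the assembly factor MALSU1. Mrpl14 stood at 6.26, 6.20, 6.19 and 6.01 on the LPS arrays, against 5.05, 5.12, 5.48 and 5.37 on the immature arrays. Every LPS array was above every immature array (0.91 ± 0.11, adjusted p = 2.6e-04). The product of Mrpl45 lies at the exit of the nascent peptide and ties the ribosome to the inner membrane. Mrpl45 had levels of 4.83, 4.86, 4.86 and 4.68 in the LPS samples and 3.78, 3.79, 4.28 and 4.09 in the immature samples. The groups did not overlap, LPS being the higher, the 2 highest immature values being those of replicates 3 and 4 (0.82 ± 0.12, adjusted p = 7.2e-04). Its promoter, printed above, carries 2 matches to the NRF1 letters.

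The other large subunit genes called higher changed by less than 1.5-fold. Levels of Mrpl53 were 3.89, 3.89, 3.72 and 3.86 in LPS replicates 1 to 4 and 3.38, 3.39, 3.10 and 3.28 in immature replicates 1 to 4. All 4 LPS values were higher than all 4 immature values (0.55 ± 0.09, adjusted p = 0.00102), and its product is mitochondria-specific. Mrpl1 encodes the protein of the mobile stalk beside the exit site for transfer RNA. Mrpl1 stood at -0.26, -0.24, -0.19 and -0.55 on the LPS arrays, against -0.79, -0.78, -0.74 and -0.81 on the immature arrays. No immature array reached the LPS values (0.47 ± 0.09, adjusted p = 0.00267), although LPS replicate 4 was the lowest of its group. Mrpl9 is the counterpart of a bacterial protein that extends from the stalk base. Mrpl9 had levels of 2.90, 2.87, 2.78 and 2.64 in the LPS samples and 2.35, 2.34, 2.48 and 2.32 in the immature samples. LPS arrays were all the higher ones (0.42 ± 0.08, adjusted p = 0.00262).

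Mrpl27 encodes a protein whose bacterial counterpart reaches the peptidyl transferase centre. Levels of Mrpl27 were 4.53, 4.62, 4.41 and 4.55 in LPS replicates 1 to 4 and 4.27, 4.33, 3.90 and 4.04 in immature replicates 1 to 4. The 2 groups stood apart, with LPS above (0.39 ± 0.11, adjusted p = 0.0156), and its other probe was also called higher, at 0.43. Mrpl44 (an RNase III-like protein of the large subunit) changed by 0.36 ± 0.08, adjusted p = 0.00415, Mrpl32 (whose product is matured by a protease of the inner membrane) by 0.30 ± 0.08, adjusted p = 0.014, and Mrpl34 by 0.21 ± 0.06, adjusted p = 0.0217. In these 3 genes the groups did not overlap. Scaling mattered for this tier: Mrpl27, Mrpl44 and Mrpl32 were no longer called with scaling to the array median or with none, Mrpl9 with none, and Mrpl34 under all 4 other scalings. The call of Mrpl34 was also lost without LPS replicate 1, LPS replicate 2 or immature replicate 1, its change without each array in turn spanning 0.19 to 0.22.

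**Figure D2:**
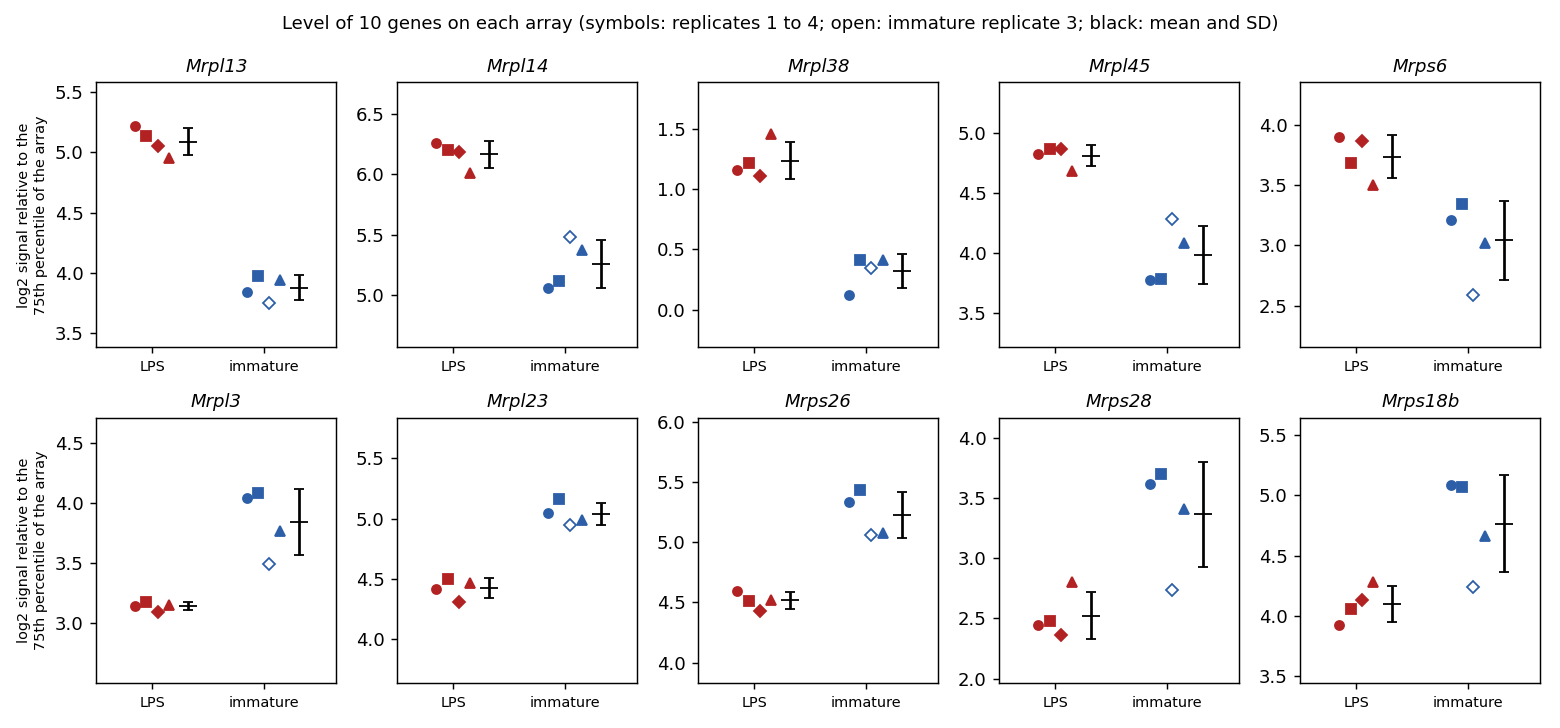
Level of 10 of the genes on each array (y axis: log2 signal relative to the 75th percentile of the array; every panel spans the same range of log2 units), LPS at the left in red and immature at the right in blue. Symbols mark replicates 1 to 4, the open diamond is immature replicate 3, and black bars are the mean and SD of 4 arrays. In the upper row the LPS values lie above all immature values, and in the lower row immature replicate 3 is the lowest immature value and comes within the LPS range for Mrps28 and Mrps18b.

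Among large subunit genes called lower, Mrpl3, Mrpl35 and Mrpl23 headed the list. Mrpl3 encodes a core protein near the peptidyl transferase centre, and its promoter is printed above. Mrpl3 stood at 3.14, 3.18, 3.10 and 3.15 on the LPS arrays, against 4.04, 4.08, 3.49 and 3.76 on the immature arrays. Every LPS array was below every immature array (-0.70 ± 0.13, adjusted p = 0.00212). Mrpl35 encodes the counterpart of a small bacterial protein of the large subunit core. Mrpl35 had levels of -1.78, -1.89, -1.97 and -1.90 in the LPS samples and -0.91, -0.94, -1.54 and -1.38 in the immature samples. The groups did not overlap, LPS being the lower (-0.69 ± 0.15, adjusted p = 0.0045). Mrpl23 encodes a protein at the mouth of the exit tunnel. Levels of Mrpl23 were 4.41, 4.50, 4.31 and 4.46 in LPS replicates 1 to 4 and 5.05, 5.16, 4.95 and 4.99 in immature replicates 1 to 4. All 4 LPS values were lower than all 4 immature values (-0.61 ± 0.08, adjusted p = 2.9e-04), and here replicate 3 stayed close to the other immature arrays.

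Mrpl50 encodes a mitochondria-specific protein. Mrpl50 stood at 1.30, 1.34, 1.15 and 1.28 on the LPS arrays, against 2.01, 2.06, 1.53 and 1.78 on the immature arrays. No LPS array reached the immature values (-0.58 ± 0.12, adjusted p = 0.00436), but its second, dimmer probe gave -0.14 and was not called. Mrpl36 is the counterpart of the smallest protein of the bacterial large subunit. Mrpl36 had levels of 3.69, 3.72, 3.59 and 3.81 in the LPS samples and 4.48, 4.42, 3.89 and 4.08 in the immature samples. LPS arrays were all the lower ones (-0.52 ± 0.14, adjusted p = 0.0119). Mrpl15 encodes the counterpart of a bacterial protein of the large subunit core. Levels of Mrpl15 were 2.63, 2.65, 2.52 and 2.61 in LPS replicates 1 to 4 and 3.17, 3.26, 2.79 and 3.07 in immature replicates 1 to 4. The 2 groups stood apart, with LPS below (-0.47 ± 0.11, adjusted p = 0.00587), and its second probe was also called lower, at -0.58.

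Mrpl12 and Mrpl16 were called lower although 1 immature array fell among the LPS values. The product of Mrpl12 forms the stalk that recruits translation factors, and has been described as a partner of the mitochondrial RNA polymerase. Mrpl12 stood at 4.01, 3.91, 3.96 and 3.94 on the LPS arrays, against 4.60, 4.67, 3.99 and 4.37 on the immature arrays. Immature replicate 3 lay between LPS replicates 3 and 1, and the change was -0.45 ± 0.14, adjusted p = 0.0257, or -0.59 without that array. Mrpl16 encodes a protein near the site that accepts transfer RNA. Mrpl16 had levels of 2.79, 2.77, 2.71 and 2.77 in the LPS samples and 3.45, 3.49, 2.75 and 3.24 in the immature samples. Immature replicate 3 was below 3 of the 4 LPS arrays, and the change was -0.47 ± 0.16, adjusted p = 0.0302, or -0.64 without it.

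The remaining large subunit genes called lower were Mrpl33 (-0.43 ± 0.10, adjusted p = 0.00513), Mrpl18 (-0.39 ± 0.12, adjusted p = 0.0206), Mrpl28 (-0.37 ± 0.12, adjusted p = 0.0275), Mrpl47 (-0.37 ± 0.14, adjusted p = 0.0461), Mrpl37 (-0.32 ± 0.11, adjusted p = 0.0407) and Mrpl48 (-0.21 ± 0.08, adjusted p = 0.0413). The groups did not overlap for Mrpl33, Mrpl18 and Mrpl48, and overlapped through immature replicate 3 alone for Mrpl28, Mrpl47 and Mrpl37. Mrpl18 encodes a protein associated with the central protuberance, and its LPS arrays agreed closely, at 2.98, 2.97, 2.98 and 2.99, against 3.48, 3.45, 3.01 and 3.53 on the immature arrays. Several calls ended when 1 array was left out. Mrpl16 and Mrpl47 lost theirs when any array but immature replicate 3 was left out, their changes spanning -0.64 to -0.39 and -0.48 to -0.27. Mrpl48 lost its call when any array but immature replicates 3 and 4 was left out (-0.25 to -0.18), and Mrpl37 when any but LPS replicate 4 and immature replicate 3 was (-0.42 to -0.25). Mrpl12 was not called without LPS replicate 2, 3 or 4 or immature replicate 1 or 2 (-0.59 to -0.37), and Mrpl28 without LPS replicate 1 or 2 or immature replicate 1, 2 or 4 (-0.49 to -0.32). Mrpl18 was not called without immature replicate 1, 2 or 4 (-0.51 to -0.34).

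In the small subunit, Mrps6, Mrps31, Mrps21 and Mrps34 were called higher. Mrps6 encodes the counterpart of a bacterial protein of the platform, the part of the small subunit that faces the exit channel for messenger RNA. Levels of Mrps6 were 3.90, 3.68, 3.86 and 3.50 in LPS replicates 1 to 4 and 3.21, 3.34, 2.59 and 3.02 in immature replicates 1 to 4. Every LPS array was above every immature array (0.70 ± 0.17, adjusted p = 0.00833). The lowest immature value, that of replicate 3, widened the difference, which was 0.55 without it and still called.

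Mrps31 encodes a mitochondria-specific protein of the head. Mrps31 stood at 2.48, 2.55, 2.41 and 2.44 on the LPS arrays, against 2.09, 2.15, 2.24 and 2.17 on the immature arrays. The groups did not overlap, LPS being the higher (0.31 ± 0.07, adjusted p = 0.00535). Mrps21, a counterpart of a small bacterial protein, and Mrps34, mitochondria-specific, moved by less. Mrps21 had levels of 5.70, 5.71, 5.63 and 5.64 in the LPS samples and 5.49, 5.48, 5.34 and 5.44 in the immature samples. Levels of Mrps34 were 4.43, 4.53, 4.37 and 4.47 in LPS replicates 1 to 4 and 4.28, 4.31, 4.17 and 4.19 in immature replicates 1 to 4. In both genes the groups did not overlap, with changes of 0.23 ± 0.07, adjusted p = 0.0184 for Mrps21 and 0.21 ± 0.07, adjusted p = 0.0317 for Mrps34. The calls of Mrps31 and Mrps21 were lost with scaling to the array median or with none, and that of Mrps34 under all 4 other scalings, so Mrps6 was the 1 small subunit gene called higher under each scaling. Mrps21 was not called without LPS replicate 1 or 2 (0.20 to 0.25 over all arrays left out), nor Mrps34 without LPS replicate 1, 2 or 4 or immature replicate 1 or 4 (0.19 to 0.24).

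The decreases of the small subunit were led by Mrps28, Mrps26 and Mrps18b. Mrps28 encodes the mitochondrial relative of a protein that in bacteria helps to bring messenger RNA to the small subunit. Mrps28 stood at 2.44, 2.48, 2.36 and 2.80 on the LPS arrays, against 3.62, 3.70, 2.74 and 3.41 on the immature arrays. Immature replicate 3 lay just below LPS replicate 4, and the change was -0.84 ± 0.21, adjusted p = 0.00914, or -1.05 without replicate 3. Mrps26 encodes a mitochondria-specific protein. Mrps26 had levels of 4.60, 4.51, 4.43 and 4.52 in the LPS samples and 5.34, 5.44, 5.06 and 5.08 in the immature samples. All 4 LPS values were lower than all 4 immature values (-0.71 ± 0.10, adjusted p = 5.9e-04), and its second probe was also called lower, at -0.77.

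Mrps18b is 1 of 3 mammalian genes related to a single bacterial small subunit protein, the other 2 being Mrps18a and Mrps18c. Levels of Mrps18b were 3.92, 4.05, 4.13 and 4.28 in LPS replicates 1 to 4 and 5.09, 5.07, 4.24 and 4.67 in immature replicates 1 to 4. Immature replicate 3 was below LPS replicate 4, and the change was -0.67 ± 0.19, adjusted p = 0.0165, or -0.84 without replicate 3. Mrps18c stood at 4.60, 4.63, 4.55 and 4.59 on the LPS arrays, against 4.62, 4.62, 4.14 and 4.35 on the immature arrays. Its change of 0.16 ± 0.12, adjusted p = 0.27 was not called. Mrps18a had levels of 3.39, 3.27, 3.50 and 3.38 in the LPS samples and 3.44, 3.48, 2.99 and 3.33 in the immature samples. Its change of 0.07 ± 0.12, adjusted p = 0.62 was not called either, so 1 of the 3 related genes was called.

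Mrps5 and Mrps2 both encode counterparts of bacterial small subunit proteins. Levels of Mrps5 were -0.27, -0.42, -0.39 and -0.26 in LPS replicates 1 to 4 and 0.25, 0.35, -0.25 and 0.16 in immature replicates 1 to 4. No LPS array reached the immature values (-0.46 ± 0.13, adjusted p = 0.0157). Mrps2 stood at 1.07, 1.15, 0.94 and 1.18 on the LPS arrays, against 1.71, 1.78, 1.11 and 1.42 on the immature arrays. Immature replicate 3 overlapped the LPS values (-0.42 ± 0.15, adjusted p = 0.0394), the second probe was not called, and leaving out any array other than immature replicate 3 ended the call (range -0.55 to -0.33). Mrps15, a counterpart of a bacterial protein that binds ribosomal RNA early, was more regular.

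Mrps15 had levels of 2.99, 3.02, 2.95 and 2.99 in the LPS samples and 3.23, 3.28, 3.13 and 3.29 in the immature samples. LPS arrays were all the lower ones (-0.24 ± 0.07, adjusted p = 0.0147). Mrps9 and Mrps35 were the smallest decreases called. Levels of Mrps9 were 1.67, 1.68, 1.60 and 1.47 in LPS replicates 1 to 4 and 1.84, 1.84, 1.81 and 1.75 in immature replicates 1 to 4. Mrps35 stood at 1.58, 1.52, 1.50 and 1.43 on the LPS arrays, against 1.70, 1.71, 1.73 and 1.68 on the immature arrays. The groups did not overlap in either gene, with changes of -0.21 ± 0.07, adjusted p = 0.0389 for Mrps9 and -0.20 ± 0.06, adjusted p = 0.0274 for Mrps35. The call of Mrps9 was lost when any array but immature replicate 3 was left out (-0.23 to -0.16), and that of Mrps35 when any but LPS replicate 1 and immature replicate 3 was (-0.22 to -0.17).

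The 23 large subunit genes that were tested and not called were Mrpl49, Mrpl24, Mrpl52, Mrpl10, Mrpl4, Mrpl55, Mrpl40, Mrpl11, Mrpl58, Mrpl43, Mrpl30, Mrpl41, Mrpl54, Mrpl46, Mrpl17, Mrpl20, Mrpl51, Mrpl22, Mrpl2, Mrpl42, Mrpl19, Mrpl57 and Mrpl39. Their changes ran from 0.26 in Mrpl49 to -0.32 in Mrpl39, with standard errors of 0.06 to 0.15. The 17 small subunit genes not called were Mrps18c, Mrps36, Mrps24, Mrps7, Mrps18a, Mrps16, Mrps30, Mrps33, Mrps10, Mrps12, Mrps27, Mrps22, Mrps25, Mrps14, Mrps11, Mrps17 and Mrps23. Theirs ran from 0.16 in Mrps18c to -0.27 in Mrps23, with standard errors of 0.07 to 0.15. A missed threshold does not show equal expression, since errors of this size leave room for small changes.

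Among the genes not called are 3 of particular function. Mrpl58 encodes a peptidyl-tRNA hydrolase built into the large subunit, which frees stalled nascent chains. Mrpl58 had levels of 4.03, 4.17, 4.10 and 4.11 in the LPS samples and 4.26, 4.31, 4.01 and 4.07 in the immature samples. The groups overlapped and the difference was -0.06 ± 0.09, adjusted p = 0.574. Mrps30, a large subunit protein by structure, stood at 2.95, 2.93, 2.95 and 2.80 on the LPS arrays, against 2.94, 2.95, 2.81 and 2.84 on the immature arrays. Its difference was 0.02 ± 0.07, adjusted p = 0.819. Levels of Mrps36 were 4.06, 4.06, 3.95 and 4.04 in LPS replicates 1 to 4 and 3.90, 3.96, 3.73 and 3.90 in immature replicates 1 to 4. Its groups overlapped, with a difference of 0.15 ± 0.08, adjusted p = 0.113.

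The spread within groups was uneven. The median SD of the 77 genes was 0.07 over the LPS arrays and 0.20 over the immature arrays, beside 0.13 and 0.18 for all tested genes. Immature replicate 3 lay below the mean of the other 3 immature arrays for 63 of the 77 genes (81.8%; median difference -0.29), against 52.5% of all tested genes (median difference -0.02). It was the lowest immature array for 36 of 48 large subunit genes and 26 of 29 small subunit genes. For the cytosolic ribosomal protein genes it was the lowest in 3 of 78 and the highest in 62. Over all 12706 tested genes it was the lowest immature array for 5089 (40.1%) and the highest for 4475. The median level of the 77 genes, each set against its own mean over the 8 arrays, was -0.05, -0.03, -0.10 and -0.05 on the LPS arrays, and 0.14, 0.20, -0.16 and 0.02 on the immature arrays. Immature replicate 3 was thus the lowest of all 8 arrays, and replicates 1, 2 and 4 were above every LPS array.

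Without immature replicate 3, 16 of the 77 genes were called higher and 40 lower, beside 33.7% and 27.9% of all tested genes. The 15 higher and 22 lower calls of the 8 arrays were all kept, Mrpl24 was added to the higher calls, and 18 genes were added to the lower calls. These 18 were Mrpl2, Mrpl17, Mrpl19, Mrpl20, Mrpl39, Mrpl41, Mrpl42, Mrpl51, Mrpl54 and Mrpl57 in the large subunit, and Mrps11, Mrps12, Mrps14, Mrps17, Mrps22, Mrps23, Mrps25 and Mrps27 in the small subunit. Their changes then ran from -0.19 in Mrps12 to -0.40 in Mrpl57. By subunit, 12 large subunit genes were then called higher and 24 lower, and 4 small subunit genes higher and 16 lower, with medians of -0.21 and -0.19.

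**Figure D3:**
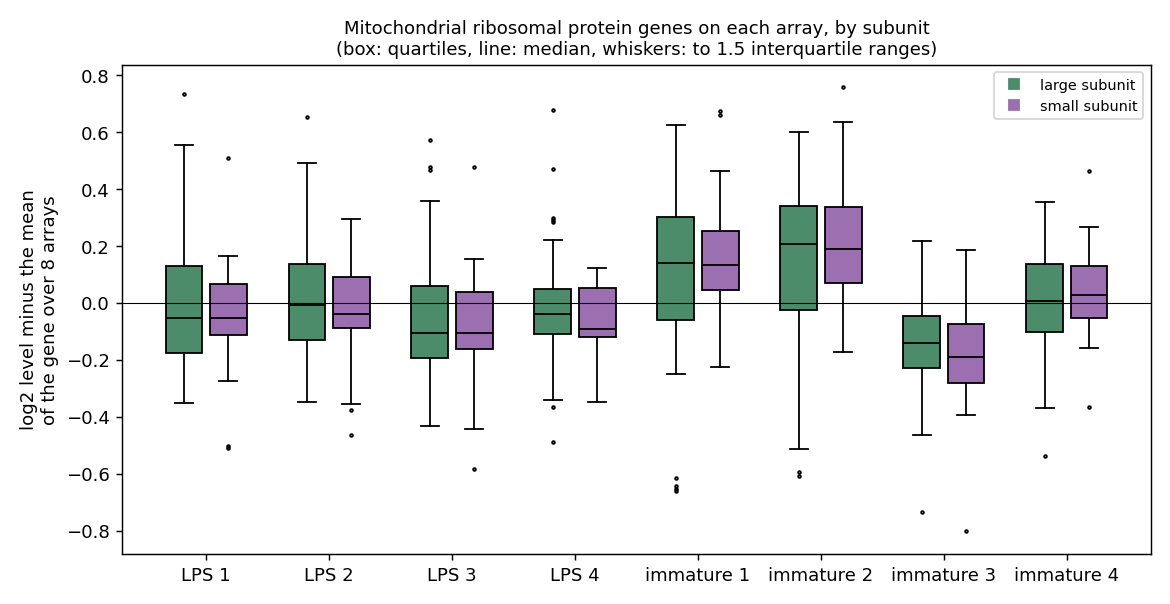
Level of the 77 genes on each array, large subunit in green and small subunit in purple (y axis: log2 level minus the mean of the gene over the 8 arrays; boxes: quartiles, line: median, whiskers: to 1.5 interquartile ranges, points: genes beyond). The 2 subunits track each other on every array, immature replicates 1 and 2 are the highest, and immature replicate 3 is the lowest, with medians of -0.14 and -0.19.

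Some genes for mitochondrial ribosomal proteins share their start region with a gene on the opposite strand. By RefSeq, 21 of the 78 genes had such a neighbour with a start at most 300 bases away, in 20 pairs, and both genes were tested in 18 pairs. Both were called in 5 pairs, 1 of the 2 in 7 and neither in 6. Of all 12706 tested genes taken singly, 56.1% were called. Unrelated pairs were not counted, so these numbers are not read as a result about shared starts. Mrpl14 and Tmem63b, 131 bases apart, were both higher (0.91 and 1.66), as were Mrpl32 and Psma2, a proteasome subunit gene 205 bases away (0.30 and 0.31). Mrpl37 and Cyb5rl, 128 bases apart, were both lower (-0.32 and -1.54).

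Opposite calls were made in 2 pairs. Mrpl27 was higher by 0.39, whereas Eme1, a DNA repair endonuclease gene whose start is 48 bases away, changed by -1.33. Mrpl50 changed by -0.58, whereas Zfp189, a zinc finger gene 93 bases away, changed by 0.65. Mrpl57 (-0.30, not called) lies 76 bases from Ska3, a gene of chromosome segregation that changed by -1.97. Mrpl43 (-0.06, not called) lies 116 bases from Twnk, the gene of the mitochondrial DNA helicase, which changed by -0.61. In 1 pair both genes belong to the set: Mrpl46 and Mrps11, of the large and the small subunit, start 42 bases apart, and neither was called (-0.12 and -0.22). Their levels ran together over the arrays, Mrpl46 at 1.64, 1.68, 1.61 and 1.63 and Mrps11 at 0.72, 0.75, 0.70 and 0.72 on the LPS arrays, against 1.97, 2.01, 1.40 and 1.67 and 1.17, 1.15, 0.57 and 0.90 on the immature arrays. A low immature replicate 3 was not particular to this pair, as that array was the lowest immature one for 62 of the 77 genes.

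**Figure D4:**
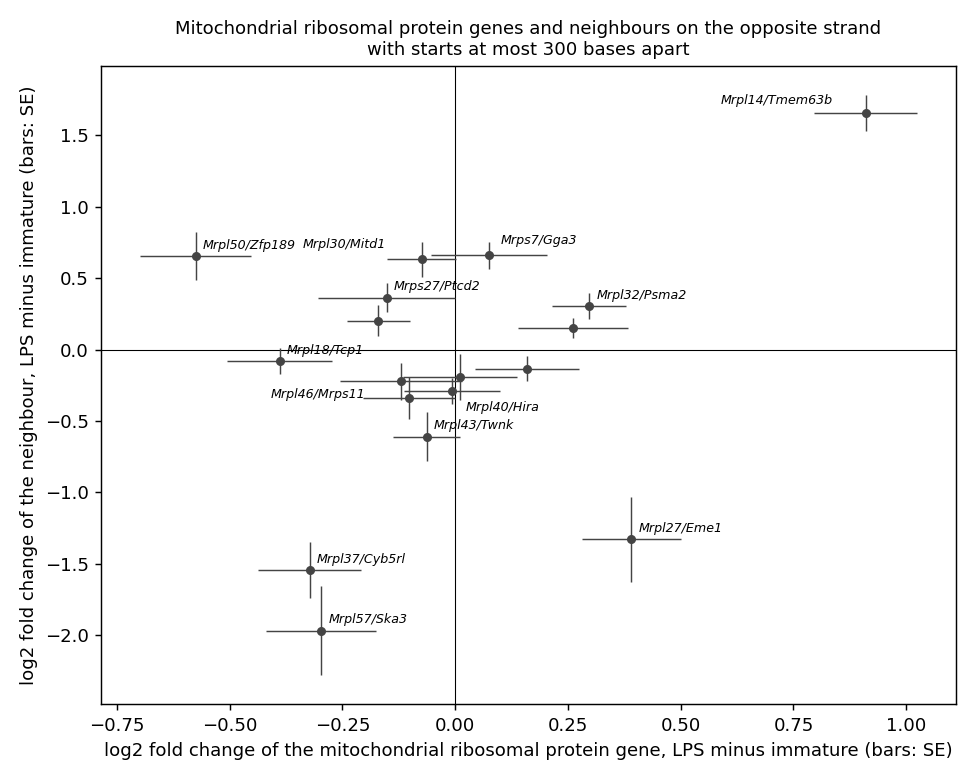
Change of 18 mitochondrial ribosomal protein genes (x axis: log2 fold change, LPS minus immature) against that of the neighbour on the opposite strand (y axis: the same quantity), with bars for the standard error, and labels on pairs with at least 1 called gene and on Mrpl46/Mrps11. Pairs lie in all 4 quadrants, with Mrpl14/Tmem63b at the upper right and Mrpl27/Eme1 at the lower right.

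Other genes of mitochondrial translation were read from lists by role. Over all tested genes 31.4% were called higher and 24.7% lower. Immature replicate 3 was the lowest immature array for 52 to 100% of the genes of each mitochondrial list, against 40.1% of all genes. List counts without that array or under other scalings are not given, so the counts are a description only. Of 5 mitochondrial ribosomal proteins with other symbols, 1 was called lower and 0 higher (median -0.03): Ptcd3, a pentatricopeptide repeat protein of the small subunit, stood at 2.94, 2.91, 2.86 and 3.03 on the LPS arrays, against 3.82, 3.84, 3.29 and 3.62 on the immature arrays (-0.71 ± 0.13, adjusted p = 0.00176), whereas Dap3, a GTP-binding protein of the small subunit head, changed by 0.01 and was not called. Of 25 assembly factors and ribosomal RNA modifying enzymes, 6 were called higher and 7 lower (median -0.05). Nsun4, a methyltransferase that also acts in joining the subunits, was higher (1.04 ± 0.08, adjusted p = 1.7e-05), as was the ribosomal RNA methyltransferase gene Mrm1 (0.69 ± 0.07, adjusted p = 1.1e-04). Rcc1l (-1.21 ± 0.27, adjusted p = 0.00538) and Mrm3 (-1.07 ± 0.32, adjusted p = 0.019), an assembly factor and a ribosomal RNA methyltransferase, were lower. Malsu1, the partner of the Mrpl14 protein, was called higher at 0.51. It was singled out after its values were seen, as was Oxa1l below.

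Of 18 genes of translation factors, messenger RNA handling and protein insertion, 4 were called higher and 3 lower (median -0.06). The initiation factor gene Mtif3 (0.56 ± 0.07, adjusted p = 2.0e-04) and Slirp, an RNA-binding protein that stabilises mitochondrial messenger RNA (0.54 ± 0.06, adjusted p = 2.2e-04), were higher. Pdf, the deformylase of nascent chains (-0.82 ± 0.19, adjusted p = 0.00563), and Guf1, a translation elongation factor (-0.72 ± 0.13, adjusted p = 0.00195), were lower. Oxa1l, the inner membrane insertase beside the exit site, was called higher at 0.40. Of 26 genes of mitochondrial transcription and RNA processing, 3 were called higher and 11 lower (median -0.20). Mterf2 (0.60 ± 0.14, adjusted p = 0.00665) and Fastkd1 (0.51 ± 0.13, adjusted p = 0.0103) were the largest increases. The transfer RNA processing nuclease gene Elac2 (-0.96 ± 0.18, adjusted p = 0.00262) and Tbrg4 (-0.69 ± 0.22, adjusted p = 0.0259) were the largest decreases. For Fastkd1 and Tbrg4 the groups overlapped through immature replicate 3.

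Of 19 mitochondrial aminoacyl-tRNA synthetases and partners, 2 were called higher and 7 lower (median -0.34). The increases were in Ears2, for glutamate, and Hars2, for histidine. Ears2 stood at 1.81, 1.90, 1.82 and 1.07 on the LPS arrays, against -0.01, -0.10, -0.61 and -0.07 on the immature arrays, with no overlap (1.85 ± 0.21, adjusted p = 1.6e-04), and Hars2 changed by 0.30 ± 0.09, adjusted p = 0.018. Qrsl1 (-1.22 ± 0.18, adjusted p = 6.1e-04) and Gatc (-0.58 ± 0.10, adjusted p = 0.00163), subunits of the amidotransferase that completes glutaminyl-tRNA, were the largest decreases. Ears2 makes the substrate of that amidotransferase, so genes of successive steps were called in opposite directions.

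Of 13 regulators of mitochondrial biogenesis, 1 was called higher and 7 lower (median -0.36). Yy1 changed by 0.23 ± 0.08, adjusted p = 0.0381, with the groups overlapping through immature replicate 3. Myc, a transcription factor gene known to drive ribosome and mitochondrial gene expression, stood at -1.83, -1.69, -0.54 and -0.51 on the LPS arrays, against 2.20, 2.07, 0.70 and 1.80 on the immature arrays (-2.83 ± 0.42, adjusted p = 7.0e-04). Ppargc1b, a coactivator gene, changed by -1.34 ± 0.24, adjusted p = 0.00171. The genes of the factors whose motifs were searched were also measured: Nrf1 changed by -0.54 ± 0.11, adjusted p = 0.00353 and Gabpa by -0.45 ± 0.08, adjusted p = 0.00197, both called lower. The genes encoded in mitochondrial DNA were not analysed here.

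For scale, of 78 cytosolic ribosomal protein genes 1 was called higher and 45 lower (median -0.26). The increase was in Rps24 (0.19 ± 0.06, adjusted p = 0.0326), and the largest decreases were in Rpl3 (-0.83 ± 0.09, adjusted p = 1.4e-04) and Rpl5 (-0.76 ± 0.10, adjusted p = 3.5e-04). The mitochondrial set held 15 higher calls and 22 lower calls among 77. The difference between the 2 ribosomes was not tested, and the cytosolic set did not share the low values of immature replicate 3.

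**Figure D5:**
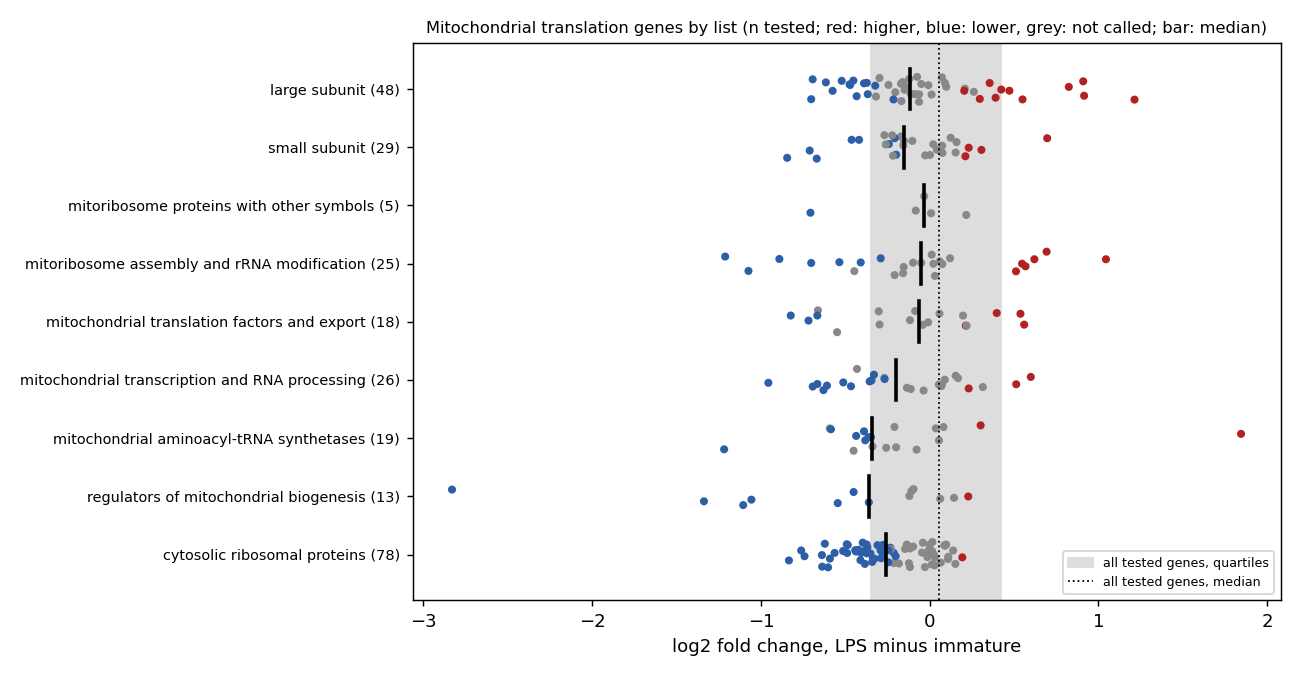
Change of every tested gene in each list (x axis: log2 fold change, LPS minus immature; number tested in brackets; red higher, blue lower, grey not called; bar: median of the list), with the quartiles of all tested genes shaded and their median dotted. The medians of the 2 subunits, -0.12 and -0.15, lie between those of the translation factors, -0.06, and the cytosolic ribosomal proteins, -0.26.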

How the data were processed

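Total RNA of 4 LPS and 4 immature samples was labelled with Cy3 by an Agilent Quick Amp kit and hybridised to one-colour Agilent arrays, per the labels. Per the file headers and the submitters' processing notes, the scans were quantified in Agilent Feature Extraction 11.0.1.1. The deposited processed signals are intensity values with background subtracted and no scaling between arrays. The arrays hold 59305 spots outside the controls; 122 to 206 outlier spots per array were left out, 0 were saturated, and precision is limited by how many arrays there are.

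Replicate spots were averaged per probe as log2 signals, from which the array's 75th percentile was taken off. Of 55681 probes, 27509 matched a single symbol by transcript accession in RefSeq (GRCm38.p6), which also settled the symbols of the mitochondrial ribosomal protein genes, and 28172 did not. The array design gives positions on an older genome build, so none of its coordinates were used. The probe with the highest mean stood for a gene, which entered the test if all 4 arrays of either group called the probe well above background.

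Groups were compared with lmFit and eBayes of limma 3.58.1 (R 4.3.3; statmod 1.5.0; data.table, version 1.17.8). Tests were two-sided with Benjamini-Hochberg adjustment over all 12706 tested genes and a threshold of 0.05. No p-value was adjusted over a list alone and no gene list was tested as a set. The fit was tested on simulated data. Tables and figures were made with Python 3.11.15, pandas 2.3.3, numpy 2.4.6 and matplotlib 3.10.9. Alternatives were 4 other scalings, normexp (offset 50, on the median spot and background intensities, since the files used here hold no mean signal), other filters and probe rules, unmatched transcripts, a replicate block, a trended robust prior, array weights, averaging of replicates 1 and 2, a minimum change and each array left out.

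The genes, the lists and the named genes (in each subunit the 8 largest called changes each way, 8 genes of special function, and from each list the 2 largest called changes each way) were chosen with earlier results of these data known. One listed marker gene is not reported here.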

Additional observations from a re-analysis of the deposited data

Results flagged for a closer look

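Within each group of 4 arrays, the highest or lowest level of a gene was set against the other 3 by Dixon's test, in 154 groups (77 genes in 2 groups). A single array stood apart in 7, where chance gives about 1 in 20, and 4 of the 7 were immature replicate 3. LPS replicate 3 had a level of 3.65 for Mrpl40 (3.76 to 3.78 on the other LPS arrays). LPS replicate 4 had 5.16 for Mrps16 (5.32 to 5.33) and 2.80 for Mrps30 (2.93 to 2.95). None of these 3 genes was called. Immature replicate 3 was low for Mrpl18, at 3.01 (3.45 to 3.53 on the other immature arrays), for Mrpl28, at 1.87 (2.29 to 2.38), and for Mrpl32, at 2.59 (2.66 to 2.66). It was high for Mrpl9, at 2.48 (2.32 to 2.35). The calls of all 4 genes were kept without that array, the changes being then -0.51 for Mrpl18, -0.49 for Mrpl28, 0.28 for Mrpl32 and 0.46 for Mrpl9.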

How the results depend on the processing

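Of 15 genes called higher, 12 kept the call in all 8 fits that left out an array, 7 under all 4 other scalings and 7 in every refit (Mrpl1, Mrpl13, Mrpl14, Mrpl38, Mrpl45, Mrpl53 and Mrps6). Of 22 called lower, 12 kept it in all 8 such fits, 22 under all 4 other scalings and 6 in every refit (Mrpl3, Mrpl15, Mrpl23, Mrpl33, Mrpl35 and Mrps26). Of these, Mrpl1, Mrpl15 and Mrpl33 changed by less than 0.5, so 6 and 4 also pass the minimum change below. The sign of a called change turned once, for Mrpl34 with no scaling (-0.0025, adjusted p = 0.982). Scaling to the array median gave 8 genes higher and 35 lower (large subunit 7 and 23, small subunit 1 higher), medians of -0.30 for all 77, -0.29 for the large and -0.33 for the small subunit, and 2615 of all genes higher. No scaling gave 7 higher and 36 lower (large 6 and 23, small 1 and 13), medians of -0.33, -0.32 and -0.36, and 2428 of all genes higher. No filter on dim probes gave 7628 genes higher among the 20887 then tested, and 5 small subunit genes lower. Keeping unmatched transcripts gave 4769 lower, among more tested entries than the 12706 of the main fit. Array weights gave 45 lower (28 large, 17 small). Replicates 1 and 2 averaged gave 7 lower (6 large, 1 small) and 1 small subunit gene higher, with fewer samples. These 2 replicates were the closest pair of each group, with a spread of 0.111 for LPS and 0.0941 for immature. They also had the largest array weights of each group. The labels do not say whether they are independent, and most lower calls were lost when they were counted as 1. A log2 change of at least 0.5 in addition left 6 higher and 8 lower (large 5 and 5, small 1 and 3) and 2585 of all genes higher. The share of all genes called lower is not given for array weights, averaged replicates or the minimum change. Those lower counts are therefore not read as a result about the 77 genes.

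With each array left out in turn, lower calls ranged from 12 to 40 (large 7 to 24, small 5 to 16) and small subunit genes called higher from 2 to 4. The highest lower counts were without immature replicate 3 and the lowest without immature replicate 1 or 2. Lower calls were 13 without LPS replicate 2, 14 without LPS replicate 3 and 14 without immature replicate 4, all over 1.5 times from 22. Without immature replicate 3, 27.9% of all tested genes were called lower. That share is not given for the other arrays left out, so these counts are not read as a result about the members. The large minus small difference of medians, 0.0355, ranged from -0.015 to 0.0403 over these fits and was 0.0048 with normexp, -0.0137 when probes of a gene were averaged, -0.0059 with array weights, -0.0243 with replicates 1 and 2 averaged, and 0.0634 by structure. Its sign is thus not settled. Where no reason is given, the cause was not tested.

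With the replicate number as a block, 13 genes were called higher and 18 lower, beside 3627 and 2979 of all genes. Same-numbered arrays did not deviate together (correlations of 0.19, 0.02, 0.05 and -0.10), not every array correlated best with its own number, and the numbers were not taken as pairs. Signal over background set no limit for the 77 genes tested.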
